A study of Mus musculus with 60 samples.

Results

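Rrm2 and the enzymes that make and maintain deoxynucleotides were followed through 3 RNA-seq experiments on mouse liver organoids. The 9 genes were Rrm1, Rrm2, Rrm2b, Tyms, Shmt1, Dut, Tk1, Dck and Dctpp1, taken by the Ensembl identifier that carries each symbol out of 31354 genes found in at least 1 of the count tables, and all 9 were present in every table. They were picked with earlier results of these data known, so their values are given as a description. Where members are counted as past the threshold of a fit over all genes, the count stands beside the share of all genes past it and supports nothing, and no P-value of a member is given. P-values are given only for other genes of the same pathways. Their lists were also chosen with earlier results of these data known, so their P-values and counts are a description too.

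Cholangiocyte-derived organoids are cultures grown from the bile duct fragments of a digested liver. All came from C57BL/6N mice without any genetic change or drug, labelled 3 to 4 months old. In the first experiment, 3 pools of mice, of 2, 4 and 3 animals, were grown either in solid Matrigel domes or in dilute Matrigel on a shaker, which gave 3 dome and 3 suspension cultures. In the second, bulk cultures of Sets 1, 3 and 4, each from the liver of a single mouse, were sequenced at labelled passage 4 and labelled passage 11 with 2 technical replicates each. In the third, 42 organoids were picked singly from suspension cultures of Sets 1 to 4, and the 35 that the study kept were used, with 8, 10, 5 and 12 organoids per set. The Set 1 organoids were at passage 11, those of Sets 2 and 3 at passage 3 and those of Set 4 at passage 4, so mouse, passage and culture history of Set 1 cannot be told apart. The organoids of a set share their mouse and are not replicate animals.

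Ribonucleotide reductase converts ribonucleotides to deoxyribonucleotides and limits how fast a cell can copy its DNA. Its large subunit, Rrm1, pairs either with Rrm2, a small subunit that is made in S phase and destroyed after it, or with Rrm2b, a small subunit induced by p53 that also serves cells at rest. Around it, Tyms makes thymidylate with a folate cofactor, Shmt1 supplies the one-carbon unit for it, Dut turns dUTP into the dUMP that Tyms uses, Tk1 and Dck recover deoxynucleosides, and Dctpp1 hydrolyses dCTP and its modified forms.

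The libraries held 1776490 to 14761853 counts in the culture experiment, 639086 to 3175147 in the 12 passage libraries and 1059002 to 11175868 in the 35 organoids. Levels are given as CPM, counts scaled to a common library total with TMM factors within each table, so they are not compared between tables. All 10 cholangiocyte markers, Epcam, Krt7, Krt19 and Sox9 among them, were above 1 CPM in every library used. Mesenchymal and endothelial lists summed to at most 3.84 CPM in any library. The leukocyte list summed to 207–281 CPM in domes and 525–649 CPM in suspension, and to 381–624 CPM at passage 11 and 876–1160 CPM at passage 4, carried by Cd14 and Cd68, while Ptprc stayed at or below 1.47 CPM and Adgre1 at or below 0.0761 CPM. Its part in the results was not tested. The hepatocyte list summed to 793–1147 CPM at passage 11 and 312–737 CPM at passage 4, and to 308–849 CPM in domes and 263–649 CPM in suspension. Most of these sums was Ttr, at 267–1093 CPM in the passage experiment and 216–768 CPM in the culture experiment. Alb stayed at or below 4.96 CPM in both. The part of this list was not tested either. In bulk cultures, fewer cells in S phase and less of these RNAs per cell cannot be told apart.

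Promoter sequences were read for the pair that forms the S phase enzyme, to show the windows beside which its changes stand. They are the 250 bases before the RefSeq start on GRCm38.p6, written 5′ to 3′ on the strand of the gene, with the letters CCAAT in capitals. The Rrm1 window is chr7:102441445-102441694 and the Rrm2 window chr12:24708004-24708253, both on the plus strand, and the last bases of the Rrm2 window lie inside the gene as GENCODE M21 draws it.
Rrm1: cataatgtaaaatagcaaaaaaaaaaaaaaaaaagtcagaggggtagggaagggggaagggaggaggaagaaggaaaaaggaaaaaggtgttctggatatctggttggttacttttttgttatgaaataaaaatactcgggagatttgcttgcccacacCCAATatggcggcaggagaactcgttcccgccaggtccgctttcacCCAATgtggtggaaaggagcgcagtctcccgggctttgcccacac
Rrm2: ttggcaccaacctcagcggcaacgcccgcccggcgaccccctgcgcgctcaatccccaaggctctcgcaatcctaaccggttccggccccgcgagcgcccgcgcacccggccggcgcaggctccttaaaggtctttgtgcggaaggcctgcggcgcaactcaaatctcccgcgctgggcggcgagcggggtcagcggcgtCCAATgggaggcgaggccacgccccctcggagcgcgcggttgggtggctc

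CCAAT was searched on both strands because many S phase and mitotic promoters carry it. It occurred 2 times in the Rrm1 window, 91 and 45 bases before the start, and once in the Rrm2 window, 50 bases before it. Of the 8 members with a RefSeq promoter entry, Rrm1, Rrm2, Shmt1 and Dctpp1 held it, and so did 33.8% of all 32817 promoter windows of this length. None of the 8 held the E2F words TTTCGCGC, TTTGGCGC, TTTCCCGC or TTTGCCGC, which 1.86% of all windows hold. Only these exact words were searched, on both strands, so other spellings of an E2F site would be missed. TTTGAA, the core of the element named CHR, occurred in the Dck window alone among the members and in 16% of all windows. Rrm2b had no entry. The windows of Dut and Shmt1 lie wholly, and those of Tk1, Dck and Dctpp1 partly, inside the genes as GENCODE draws them. A match in letters is not a bound site.

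The members lie apart in the genome, at chr7:102441695-102469771 (Rrm1), chr12:24708241-24714146 (Rrm2), chr15:37923952-37961318 (Rrm2b), chr5:30058202-30073617 (Tyms), chr11:60788104-60811718 (Shmt1), chr2:125247190-125258608 (Dut), chr11:117815526-117826092 (Tk1), chr5:88764996-88783281 (Dck) and chr7:127256959-127260709 (Dctpp1) on GRCm38. Whether the counting used the strand was not stated in the sources used here. Tk1 overlaps Afmid and Shmt1 overlaps Smcr8 on the opposite strand, so reads of these pairs may be shared. The processed pseudogene Gm3362 lies inside Rrm2b on the same strand, at chr15:37943327-37943792, and touches none of its annotated exons. Gm3362 was counted at 652.5 to 1814 CPM over the 60 libraries, here on raw library totals without TMM factors, far above Rrm2b itself, so the low values of Rrm2b are the least certain of the 9.

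In domes, Rrm1 was lower than in suspension in every culture, and Rrm2 was not separated between the conditions. Rrm1, the large subunit, lay at 28.4, 19.8 and 29.7 CPM in the 3 dome cultures and at 65.2, 70.9 and 75.8 CPM in the 3 suspension cultures. The groups do not overlap, and the log2 fold-change of dome minus suspension was −1.42 ± 0.21 (SE, n = 3 and 3). Rrm2, the S phase small subunit, lay at 48.7, 82.8 and 144 CPM in domes and at 128, 97.4 and 117 CPM in suspension. Its dome cultures spread 2.96-fold and enclose the suspension values, so the groups overlap, with a log2 fold-change of −0.33 ± 0.34. Without dome culture 3, which held the highest Rrm2 value of all, the log2 fold-change was −0.86 and passed the threshold, and without dome culture 1 it was −0.0022. The ratio of Rrm2 to Rrm1 was 1.71, 4.19 and 4.85 in the dome cultures, sorted by size, against 1.37 to 1.97 in suspension. Rrm2b, the p53-induced small subunit, was near the detection limit, with 1.75, 0 and 0.55 CPM in domes and 2.95, 3.31 and 2.82 CPM in suspension. The 0 of dome culture 2 allows up to 2.2 CPM (3 counts in that library), and the log2 fold-change of −1.22 ± 0.52 changed to −3.16 and passed the threshold without dome culture 1.

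In the thymidylate branch, Tyms and Dut were lower in domes. Tyms lay at 56, 22.7 and 53.9 CPM in domes and 110, 114 and 108 CPM in suspension. Dut lay at 82.2, 30.1 and 63.2 CPM in domes and 169, 160 and 159 CPM in suspension. For both, every dome culture was below every suspension culture, and the log2 fold-changes were −1.28 ± 0.29 and −1.44 ± 0.30. Shmt1, which feeds one-carbon units to the same reaction, overlapped between the groups, with 30.3, 11 and 53.3 CPM in domes and 39.8 to 44.5 CPM in suspension. Dome culture 2 held the lowest value of Tyms, Dut and Shmt1, and also of Rrm1, Rrm2b, Tk1 and Dctpp1, but not of Rrm2 or Dck. Its library held 1885591 counts, beside 14761853 in dome culture 1 and 1776490 in dome culture 3.

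The salvage and pool cleaning members, Tk1, Dck and Dctpp1, were lower as well. Tk1 lay at 30.5, 23.5 and 37.4 CPM in domes and at 61.7, 61 and 55.6 CPM in suspension, a log2 fold-change of −0.96 ± 0.21. Dck, the salvage kinase for deoxycytidine and the purine deoxynucleosides, lay at 3.2, 3.67 and 4.95 CPM against 9.26, 7.57 and 10.1 CPM. Dctpp1 lay at 148, 98.2 and 128 CPM in domes and at 199, 227 and 180 CPM in suspension. None of these 3 overlaps between the groups. Dck no longer passed the threshold without dome culture 1 (log2 fold-change −1.05), without suspension culture 3 (−1.19) or in thinned libraries (−1.17). Dctpp1 no longer passed it without any one of suspension cultures 1, 2 and 3, with log2 fold-changes of −0.69, −0.61 and −0.78 beside −0.69 with all cultures.

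**Figure D1:**
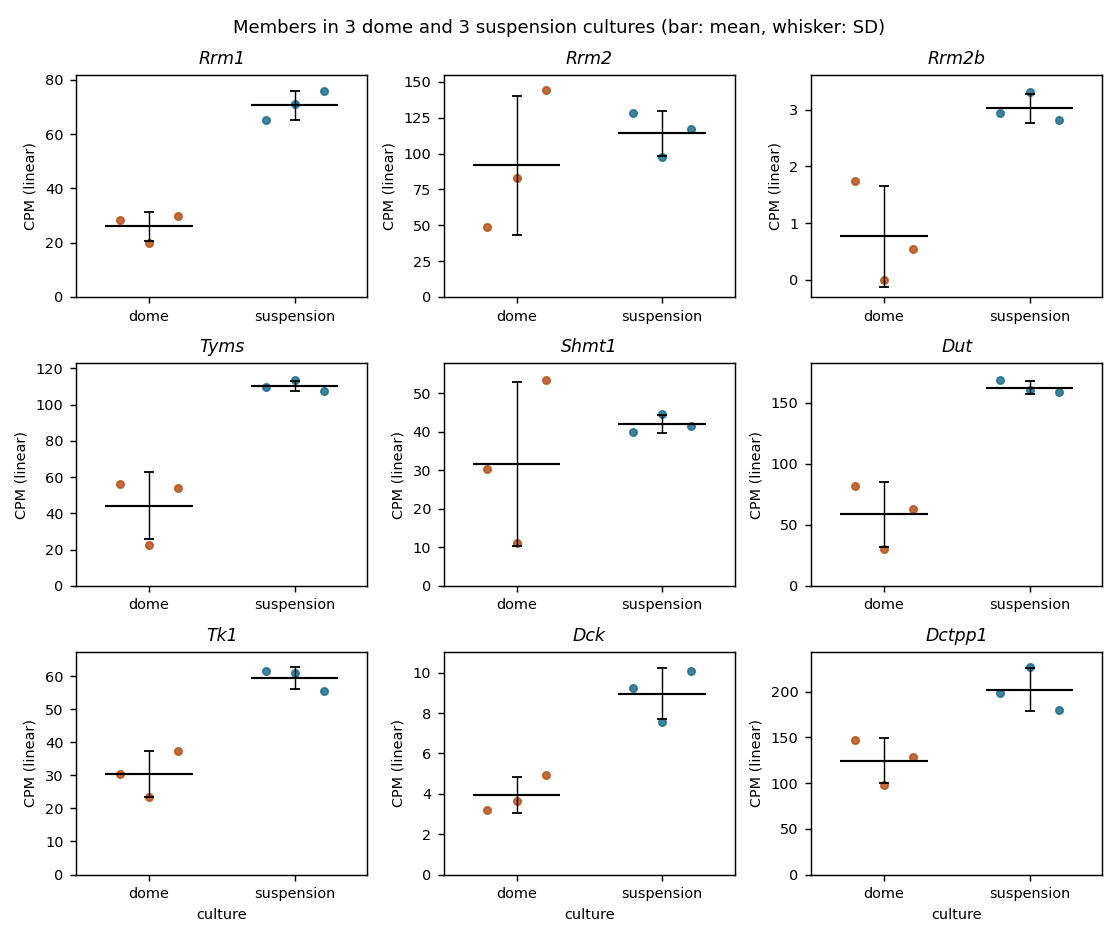
CPM of the 9 members (y axis, linear, TMM-scaled) in 3 dome and 3 suspension cultures (x axis), one panel per gene, with a point for each culture, a bar at the mean and a whisker of 1 SD. Dome points lie below all suspension points in 7 panels, and in those of Rrm2 and Shmt1 the dome points spread across the suspension values.

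In all, 6 of the 9 members passed an adj. P-value of 0.05 with lower values in domes (Rrm1, Tyms, Dut, Tk1, Dck and Dctpp1) and none with higher values, where 29.8% of the 12699 genes tested passed and 14.7% passed as lower. The groups did not overlap, with domes lower, for 7 of the 9 members and for 25.8% of all genes, and domes were higher without overlap for none of the 9 and for 21.6% of all genes. The median log2 fold-change was −1.22 over the members and −0.04 over all genes. Since the members were chosen with these values known, nothing is read from the counts. The mitochondrial share of the counts also differed, at 1.64–2.02% in domes and 3.72–4.02% in suspension, and its part was not tested.

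Around the members, 8 of 18 genes of de novo nucleotide synthesis were lower in domes by test and none higher. Over all genes, 29.8% passed, 14.7% as lower. Without suspension culture 1, 2 or 3, the de novo genes lower were 3, 3 and 4 of 18. In these settings 14.6%, 16.7% and 15.1% of all genes passed in either direction. Gart, which carries several steps of purine synthesis, averaged 4.89 ± 3.02 CPM (SD, n = 3) in domes and 20.7 ± 3.36 CPM in suspension. The fitted log2 fold-change was −1.87 ± 0.36 (SE) with an adj. P of 0.00527 in edgeR. Pfas, of the same route, changed by −1.75 (adj. P = 0.00462), Ctps, the CTP synthase, by −1.17 (adj. P = 0.0106) and Cad, which starts pyrimidine synthesis, by −1.22 (adj. P = 0.0314). The folate list was mixed, with 2 of 17 tested genes higher and 1 lower, below the share of all genes. Aldh1l1, which oxidises formyl-tetrahydrofolate, rose from an average of 1.39 CPM in suspension to 8.69 CPM (adj. P = 0.00419) and Mthfs rose by 1.37 on the log2 scale (adj. P = 0.0050).

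Among 17 regulators and electron donors of ribonucleotide reductase, 8 were lower and 2 higher in domes, and the number lower was 3, 5 and 3 without suspension culture 1, 2 or 3 and 4 without dome culture 1. Over all genes, 14.7% were lower and 15% higher with all cultures. Cdkn1a, the p53 target that blocks entry into S phase, rose by 2.25 ± 0.42 (SE) on the log2 scale, with 263 to 985 CPM in domes and 102 to 131 CPM in suspension (adj. P = 0.00499). E2f8, a repressor of the E2F family made in S phase, fell by 2.20 ± 0.31 (adj. P = 0.00170). Ccnf, the cyclin that marks Rrm2 for destruction in G2, fell by 1.18 (adj. P = 0.0265), Trp53 by 0.90 (adj. P = 0.0189) and E2f3 by 1.06 (adj. P = 0.0359), while Fzr1, an activator of the ubiquitin ligase that clears Rrm2 after mitosis, rose by 0.81 (adj. P = 0.0375). With the culture number as a block, E2f3 no longer passed (adj. P = 0.0514).

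Of 13 salvage and kinase genes tested, Cda, the cytidine deaminase, rose by 1.30 (adj. P = 0.0140), Guk1 by 0.77 (adj. P = 0.0122) and Cmpk1 by 0.74 (adj. P = 0.0389), while Dctd, which makes dUMP from dCMP, fell by 0.99 (adj. P = 0.0397). Of 11 breakdown genes tested, 2 rose, Upp1 by 1.40 among them (adj. P = 0.0122), and Samhd1, which hydrolyses all dNTPs, fell by 0.92 (adj. P = 0.0255). All 8 S phase context genes were lower, led by Mki67, a protein of cycling cells, with −2.26 (adj. P = 0.00149), Mcm3 with −1.79 (adj. P = 0.00376), Mcm7 with −1.62 (adj. P = 0.000813) and Mcm4 with −1.62 (adj. P = 0.0106). The salvage list had 4 of 13 genes called and the breakdown list 3 of 11, both near the 29.8% of all genes. The lists carry median log2 fold-changes of −0.71 (de novo synthesis), −0.48 (regulators), −1.48 (S phase context), −0.10 (folate), 0.23 (salvage) and 0.31 (breakdown). Of the 23 genes that the naming rule took, 12 kept their call in all 13 alternative settings. Cmpk1, Dctd, Samhd1, Cad, Fzr1, Ccnf, E2f3 and Trp53 lost it in at least 3, where their adj. P-values reached 0.0765 to 0.156, and Cda, Upp1 and Guk1 lost it without suspension culture 3 (Guk1 also without suspension culture 1).

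Between the labelled passages, Rrm2 carried the largest difference of the 9 genes. It lay at 125, 170 and 257 CPM in Sets 1, 3 and 4 at labelled passage 11 and at 24.9, 21.9 and 21.3 CPM at labelled passage 4. The passage 4 values differ little between sets, the passage 11 values spread 2.06-fold, and the groups are far apart. The log2 fold-change was 3.01 ± 0.25 (SE, n = 3 and 3), an 8.05-fold difference, and within sets the fold ran from 5.01 in Set 1 to 12.1 in Set 4. The technical replicates held 311 and 245, 419 and 438, and 233 and 171 Rrm2 counts at passage 11, and 41 and 55, 58 and 56, and 68 and 53 at passage 4, so each pair stayed close beside the gap between passages. Direction follows the labels of the libraries, which no other measure in the table checks. In the paper's text, proliferation and cell cycle terms belong to genes lower at passage 11, opposite to Rrm2 here. Its figure legend instead labels the panel of those terms as higher at passage 11. The single organoids of Set 1, which were at passage 11, had less Rrm2 than those of Sets 2 to 4, at passages 3 and 4. The signs of the bulk and organoid differences are thus opposite, but the contrasts are unlike. The bulk libraries compare passages within the same mice, in total RNA. The organoids compare Set 1 with other mice, in mRNA, where passage and mouse cannot be told apart. If the passage labels of the bulk libraries were exchanged, every passage difference given here would change sign and keep its size.

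The difference in Rrm1 was smaller. It lay at 50, 70.8 and 90.9 CPM at passage 11 and at 20.2, 24.4 and 24.1 CPM at passage 4, a log2 fold-change of 1.59 ± 0.21. The ratio of Rrm2 to Rrm1 was 2.41 to 2.83 at passage 11 and 0.88 to 1.23 at passage 4, and Set 4 was the highest of the 3 sets at passage 11 for both subunits. Rrm2b showed no such gap. It lay at 1.8, 2.19 and 2.54 CPM at passage 11 and at 1.81, 0.768 and 1.58 CPM at passage 4, with overlap in Set 1 and a log2 fold-change of 0.61 ± 0.45.

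The thymidylate genes were higher at labelled passage 11 in each set. Tyms lay at 169, 147 and 169 CPM against 43, 70.6 and 67.7 CPM, and Set 1 gained most, 3.94-fold, against 2.08-fold in Set 3. Dut lay at 177, 182 and 214 CPM against 62.5, 73.5 and 69.5 CPM, with folds of 2.48 to 3.08 in the 3 sets. Shmt1 lay at 41.7, 51.5 and 52.8 CPM against 24.4, 31.5 and 24.1 CPM, the smallest step of the branch. Their log2 fold-changes were 1.41 ± 0.19, 1.47 ± 0.14 and 0.86 ± 0.17.

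Tk1, which recovers thymidine, lay at 53.2, 48.5 and 69.3 CPM at passage 11 and at 14.8, 20.5 and 12.5 CPM at passage 4. Its log2 fold-change of 1.82 ± 0.21 was the next largest after Rrm2. Dctpp1 moved the most evenly of the 9, with folds of 1.78 to 1.81 in the 3 sets (232, 230 and 217 CPM against 128, 128 and 122 CPM). Dck lay at 3.37, 7.16 and 3.82 CPM against 2.85, 1.15 and 2.46 CPM, without overlap but with a wide error, 1.22 ± 0.44, and the fold ran from 1.18 in Set 1 to 6.22 in Set 3. Mki67, given for context, overlapped, with 11.2, 22.1 and 10.8 CPM at passage 11 and 7, 11.1 and 11.4 CPM at passage 4, while Pcna did not, at 168 to 243 CPM and 87.9 to 106 CPM.

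**Figure D2:**
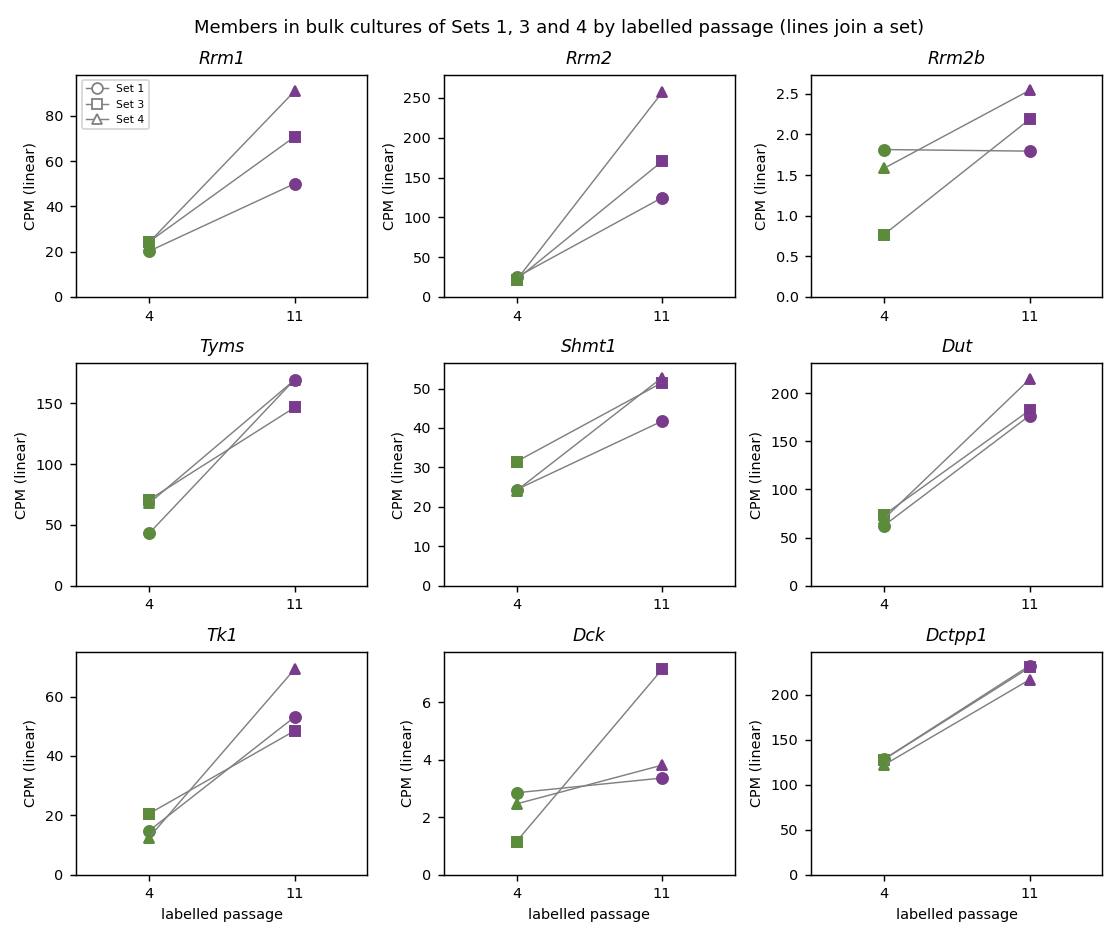
CPM of the 9 members (y axis, linear, TMM-scaled, technical replicates summed) at labelled passages 4 and 11 (x axis), with a line for each of Sets 1, 3 and 4. Lines rise in every set for all members except Rrm2b in Set 1, and those of Rrm2 rise most, from 21.3–24.9 to 125–257 CPM.

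A total of 7 of the 9 members passed the threshold with higher values at labelled passage 11 and none with lower values, where 20.3% of all 13738 genes passed and 10.1% as higher. The groups did not overlap, with passage 11 higher, for 8 of the 9 and for 19.2% of all genes. The median log2 fold-change was 1.41 over the members and −0.05 over all genes. As the members were chosen with these values known, nothing is read from these counts. The mitochondrial share was 0.891–1.76% at passage 11 and 1.81–2.63% at passage 4, and its part was not tested.

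Of the other pathway genes, those around thymidylate were higher at labelled passage 11. Dtymk, which phosphorylates the product of Tyms and Tk1, averaged 200.3 ± 5.69 CPM (SD, n = 3) against 98.3 ± 11.8 CPM. The fitted log2 fold-change was 1.03 ± 0.14 (SE) with an adj. P of 0.00141 in edgeR. Mthfd1, which supplies the folate cofactor, rose by 0.95 (adj. P = 0.00323) and Slc19a1, a folate carrier, by 0.61 (adj. P = 0.0484). Over all genes, 20.3% passed, 10.1% as higher and 10.1% as lower. In the folate list, 3 of 18 tested genes were higher and 3 lower. De novo synthesis had 7 of 18 higher and none lower, among them Pfas with 1.17 (adj. P = 0.00835), Ppat with 0.85 (adj. P = 0.0154), Umps with 0.76 (adj. P = 0.00904) and Cad with 0.83 (adj. P = 0.0461). The salvage list had 4 of 13 higher, with Nme1 at 0.82 (adj. P = 0.00588) and Cmpk1 at 0.54 (adj. P = 0.0318) beside Dtymk.

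Regulators of the reductase moved in both directions, 7 of 17 higher and 2 lower, and 4 higher and none lower without Set 3 at either passage. Of all genes, 20.3% passed with all cultures. Without Set 3 at passage 11 or at passage 4, 12.1% and 11.5% passed. E2f1, an activator of S phase genes, averaged 23.3 ± 5.50 CPM at passage 11 and 6.44 ± 0.516 CPM at passage 4, a log2 fold-change of 1.82 ± 0.23 (adj. P = 0.00109). E2f8 rose by 2.20 ± 0.42 (adj. P = 0.00710), Ccnf by 1.46 (adj. P = 0.0098) and E2f2 by 1.25 (adj. P = 0.0219). Cdkn1a fell by 0.82 (adj. P = 0.0488) and Txnrd1, of the thioredoxin system that supplies the reductase with electrons, by 0.64 (adj. P = 0.0346). Among 10 breakdown genes tested, 4 were higher, namely Ada with 1.52 (adj. P = 0.0361), Itpa with 0.83 (adj. P = 0.0031), Nudt1, which removes oxidised dGTP, with 0.82 (adj. P = 0.00656) and Nt5c with 0.62 (adj. P = 0.0373), and Samhd1 was lower with −0.79 (adj. P = 0.0452). Of the S phase context genes, 7 of 8 were higher and Mki67 did not pass, while Mcm5, Mcm3, Mcm4 and Mcm7 rose by 1.62, 1.58, 1.53 and 1.34 (adj. P = 0.00176, 0.00181, 0.00534 and 0.00262).

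The median log2 fold-change was 1.25 in the S phase context list, 0.52 in regulators, 0.49 in de novo synthesis, 0.45 in breakdown, 0.31 in salvage and 0.05 in folate genes. Among the genes named for the passages, Cmpk1, Ada, Nt5c, Samhd1, Slc19a1, Cad, E2f2, Cdkn1a and Txnrd1 lost their call in at least 4 of the 15 alternatives, among them settings without single cultures, and their adj. P-values reached 0.102 to 0.598. Nudt1 lost it with the second technical run alone (adj. P = 0.0731).

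In single organoids, Rrm2 was lowest in Set 1 and highest in Set 4. Its lowest, median and highest values were 18.5, 44.3 and 57.5 CPM in the 8 organoids of Set 1, 29.0, 49.2 and 107 CPM in the 10 of Set 2, 28.5, 55.8 and 72.5 CPM in the 5 of Set 3, and 43.2, 75.9 and 141 CPM in the 12 of Set 4. Each set overlaps its neighbours in this order, and 11 of the 12 organoids of Set 4 lay above every organoid of Set 1. The log2 fold-change of Set 1 against the mean of Sets 2 to 4 was −0.55 ± 0.19 (SE). Within sets, the organoid with the most Rrm2 held 3.1-fold (Set 1), 3.69-fold (Set 2), 2.54-fold (Set 3) and 3.26-fold (Set 4) as much as the organoid with the least.

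Rrm1 had its own order of sets. Its medians were 69.0, 87.0, 96.1 and 80.7 CPM in Sets 1 to 4, with ranges of 36.3–91.9, 65.2–133, 89.1–106 and 42–126 CPM, which all overlap. Set 3 was highest for Rrm1, not Set 4, and the log2 fold-change of Set 1 was −0.40 ± 0.14. The median ratio of Rrm2 to Rrm1 was 0.99 in Set 4 (0.78 to 1.12) and 0.52, 0.53 and 0.56 in Sets 1, 2 and 3. Rrm2b ran opposite to Rrm2 in its order, with medians of 7.93, 7.68, 5.97 and 5.25 CPM in Sets 1 to 4. Its Set 1 range, 5.27 to 14.6 CPM, overlapped all other sets, and the log2 fold-change was 0.56 ± 0.21.

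Tyms, Dut and Tk1 were lower in Set 1. The Tyms medians were 55.1, 79.0, 68.3 and 117 CPM in Sets 1 to 4, and the Set 4 organoids, at 88.5 to 153 CPM, all lay above the highest of Set 1 at 79.1 CPM. The Dut medians were 66.3, 89.1, 81.6 and 119 CPM, again with every organoid of Set 4 (85.8 to 154 CPM) above all of Set 1 (41.1 to 76.1 CPM). For both genes this holds among the kept organoids only and is lost once the left-out organoids are added. The Tk1 medians were 22.6, 36.4, 41.6 and 41.3 CPM, so Sets 2 to 4 were close and Set 1 stood below. The log2 fold-changes of Set 1 were −0.70 ± 0.15, −0.66 ± 0.14 and −0.73 ± 0.17.

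The remaining members showed smaller or less certain steps. Shmt1 medians were 35.8, 28.3, 32.9 and 33.8 CPM in Sets 1 to 4, highest in Set 1, with a log2 fold-change of 0.24 ± 0.13. Dctpp1 medians were 113, 146, 120 and 207 CPM, with −0.41 ± 0.15. Dck was at 5.15 CPM or less in every organoid, with medians of 0.98, 1.83, 2.63 and 1.98 CPM, −0.74 ± 0.31 and no count in Set 1 organoid 8, which allows up to 2.26 CPM there.

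**Figure D3:**
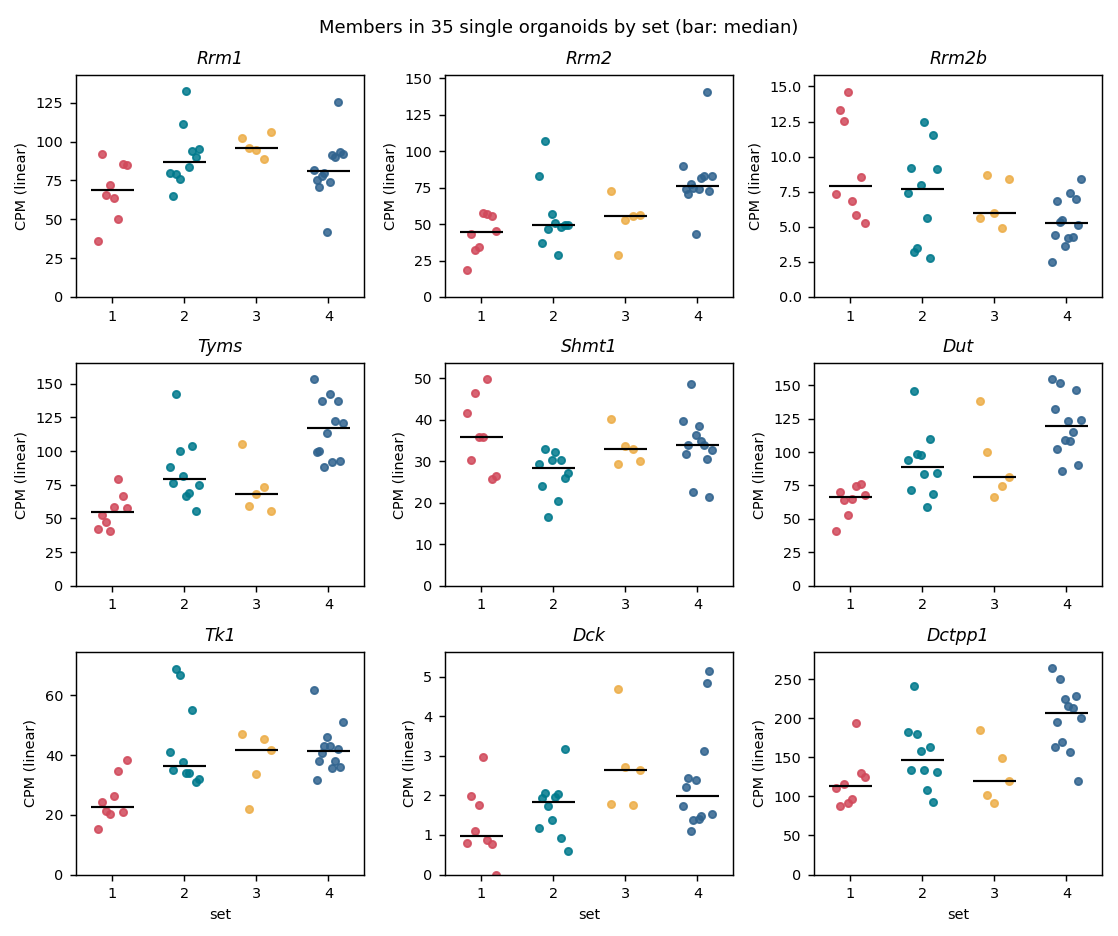
CPM of the 9 members (y axis, linear, TMM-scaled) in the 35 single organoids of Sets 1 to 4 (x axis), one panel per gene, with a point for each organoid and a bar at the median of the set. All sets overlap in the Rrm2 panel, where the medians run from 44.3 CPM in Set 1 to 75.9 CPM in Set 4. In the Tyms and Dut panels Set 4 lies wholly above Set 1, which no longer holds once the left-out organoids are added.

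Against the mean of Sets 2 to 4, 5 of the 9 members (Rrm1, Rrm2, Tyms, Dut and Tk1) passed the threshold as lower in Set 1, none as higher, and no member separated Set 1 from all other organoids. Of all 13927 genes, 18% passed, 7.73% as lower and 10.3% as higher, and 0.0503% were below in Set 1 without overlap. The median log2 fold-change was −0.55 over the members and 0.01 over all genes. The call of Rrm2 was lost without Set 3 organoid 1, 5 or 6 (−0.50, −0.54 and −0.54) and with all 42 organoids (−0.37). The call of Rrm1 was lost without any single one of the 5 Set 3 organoids (−0.39 to −0.41). It was also lost without a filter, in thinned libraries and with all 42 organoids, and was kept in 5 of 13 alternatives. That of Dctpp1 appeared without Set 3 organoid 3 or 4 (−0.44 for both) and under RLE size factors, limma-voom and DESeq2. That of Rrm2b appeared without Set 3 organoid 3 (0.60) and that of Dck under limma-voom. Nothing is read from these counts.

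Among Sets 2, 3 and 4 alone, 2 members passed a test on 2 degrees of freedom, Tyms and Dctpp1, where 17.4% of all genes passed. The widest gap between their set means was 0.69 for Tyms and 0.63 for Dctpp1 on the log2 scale, against a median of 0.49 over all genes, and 0.59 for Rrm2. Without Set 3 organoid 1, Rrm2 (0.74) and Dut (0.58) passed too, and without Set 3 organoid 3, 4 or 6 Dctpp1 did not pass (0.55, 0.53 and 0.60). Rrm2 also passed under DESeq2 (0.60) and with all 42 organoids (0.69), whereas Tyms and Dctpp1 did not pass with all 42 organoids (0.53 and 0.39) or with the organoid number as a block (0.65 and 0.57).

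Some pathway genes outside the members also differed in Set 1. Beside the 18% of all genes that passed, the salvage list had 2 of 13 and the de novo list 2 of 18, both below that share. The folate list, with 4 of 18, lay near it. The S phase context list had 7 of 8 lower and Mki67 not passing (−0.13 ± 0.22, with medians of 273 to 350 CPM in the 4 sets). Mcm7 averaged 28.6 ± 7.31 CPM (SD, n = 8) in Set 1 and 47.3 to 55.5 CPM in the other sets. Its log2 fold-change was −0.87 (adj. P = 5.41e-05), and Mcm2 changed by −0.89 (adj. P = 0.00492). P-values for Set 1, here and in the next paragraph, measure the spread between organoids, not between mice. The E2F genes split. E2f2 was higher in Set 1, at 22.9 ± 9.39 CPM against 7.10 to 8.81 CPM on average elsewhere (log2 fold-change 1.56 ± 0.19, adj. P = 5.16e-08), while E2f1 was lower by 1.03 (adj. P = 0.00262) and E2f8 by 0.67 (adj. P = 0.00706). In that list of 17 regulators, 4 were higher and 2 lower, with Glrx, an electron donor, higher by 0.66 (adj. P = 0.0178). The balance changed to 2 higher and 4 lower under limma-voom, 3 and 4 with the organoid number as a block, and 3 and 3 under DESeq2.

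Cmpk1, which phosphorylates CMP, UMP and dCMP, averaged 111 ± 21.4 CPM in Set 1 and 46.4 to 64.2 CPM in the others, a log2 fold-change of 1.10 ± 0.11 (adj. P = 1.26e-09). Cmpk2, its mitochondrial relative that interferon induces, was lower by 1.86 (adj. P = 0.00292), with averages of 3.31 CPM in Set 1 and 43.8, 5.42 and 5.01 CPM in Sets 2, 3 and 4, so Set 2 stood apart. Of 18 folate genes tested, 4 were lower in Set 1 and none higher, with Shmt2 at −0.75 (adj. P = 0.00181) and Mthfd2 at −0.69 (adj. P = 0.0217). Mthfd2 averaged 54.6 CPM in Set 1 and 56.4 CPM in Set 4, close to each other, against 127 and 91.8 CPM in Sets 2 and 3. Pfas and Ctps were the 2 of 18 de novo genes that were lower (−0.76 and −0.49, adj. P = 0.0130 and 0.0193). Among 10 breakdown genes tested, Upp1 was higher by 1.15 (adj. P = 0.000303), and 3 were lower, with Ada at −0.93 (adj. P = 0.00254) and Samhd1 at −0.75 (adj. P = 0.000739). Of the 15 genes named for Set 1, 9 kept their call in all 13 alternatives. Samhd1, Mthfd2 and E2f8 lost it with all 42 organoids, Ada and Ctps in thinned libraries and Glrx under limma-voom.

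**Figure D4:**
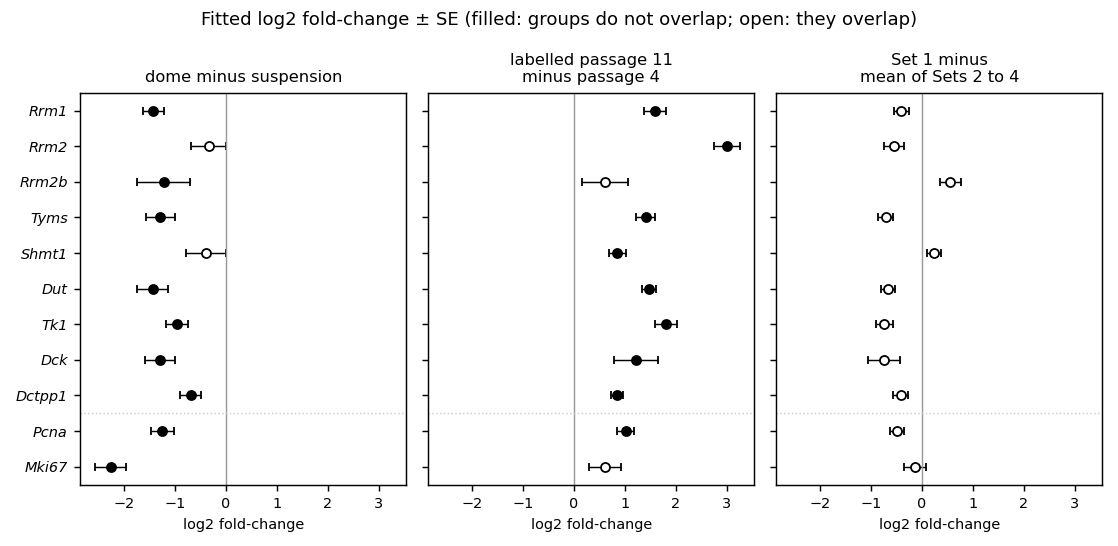
Fitted log2 fold-changes (x axis, whisker 1 SE) of the 9 members, Pcna and Mki67 (y axis) in dome minus suspension, labelled passage 11 minus passage 4, and Set 1 minus the mean of Sets 2 to 4. Filled points mark genes whose groups do not overlap. Rrm2 stands at −0.33, 3.01 and −0.55 and Mki67 at −2.26, 0.61 and −0.13.

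Organoid-to-organoid variation differed between members. The biological coefficient of variation within sets was 0.31 for Rrm2 and for Rrm2b, above the median of 0.277 over all genes, and 0.238 for Rrm1, 0.237 for Tyms, 0.234 for Dut and 0.206 for Shmt1, below it. The share of the variance of log2 CPM that lay between sets was 63% for Tyms, 54.1% for Dut, 44.1% for Tk1, 38.9% for Rrm2 and 24.6% for Rrm1, against a median of 19.1% over all genes. It was 4.53% for Mki67.

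Across the 35 organoids, Rrm2 varied together with Dut, Tyms and Tk1 and with its partner Rrm1. After the set means were subtracted, Pearson's r with Rrm2 was 0.63 for Dut, 0.60 for Tyms, 0.54 for Tk1, 0.48 for Rrm1, 0.47 for Dctpp1, 0.14 for Shmt1, −0.02 for Dck and −0.14 for Rrm2b. Tyms, Dut and Dctpp1 formed the closest group, with r of 0.81 between Tyms and Dut and 0.84 between Tyms and Dctpp1. Rrm1 instead followed Mki67 (0.69), with which Rrm2 had an r of −0.01, and Rrm2b followed Mki67 (0.66) and ran opposite to Tyms and Tk1 (−0.65 for both). The organoids share their library preparation and differ in depth. The r with the log2 library total was −0.54 for Rrm1, −0.23 for Rrm2, −0.44 for Mki67, 0.11 for Tyms and 0.63 for Shmt1, and the part of depth was not tested. These values are a description over 35 points, without a test.

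Over all 13926 other genes, Dut ranked 36th, Tyms 60th and Rrm1 293rd in r with Rrm2. The 10 genes outside the members with the highest r were Tubb5 (0.83), Elavl1 (0.77), Mcm2 (0.75), Aunip (0.74), Rfc5 (0.73), Tomm40 (0.71), Phgdh (0.71), Gm7901 (0.71), Rfc2 (0.71) and Slc29a1 (0.69). Mcm2, Rfc2 and Rfc5 code for parts of the replication machinery and Slc29a1 for a nucleoside transporter. For Rrm2b they were Cbwd1 (0.89), Bms1 (0.86), Spop (0.86), Gm9800 (0.85) and Fip1l1 (0.85), against a gene of few counts.

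**Figure D5:**
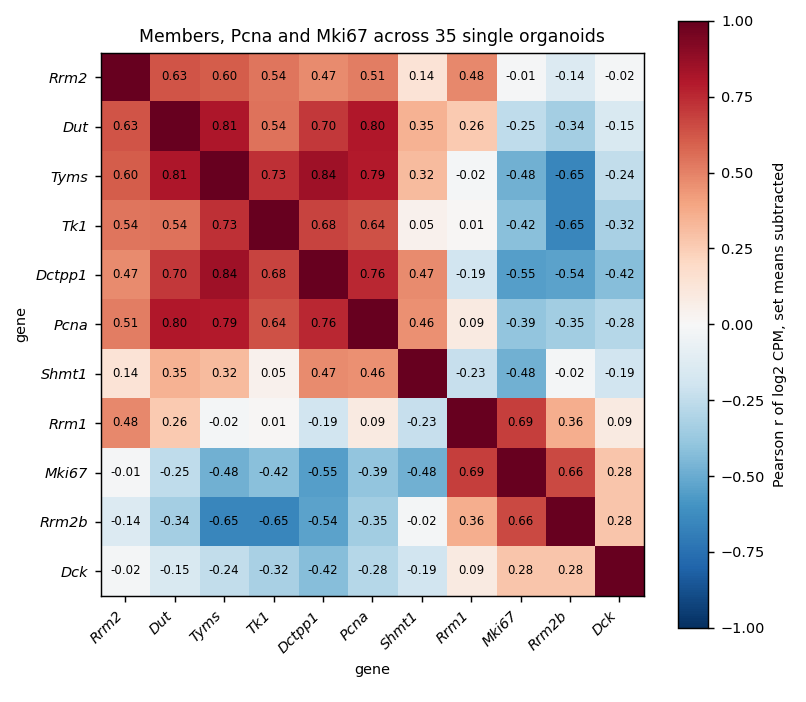
Pearson's r (colour and number) between the members, Pcna and Mki67 (both axes) over log2 CPM of the 35 single organoids with the set means subtracted. Rrm2, Dut, Tyms, Tk1, Dctpp1 and Pcna form a block of r from 0.47 to 0.84, Mki67 and Rrm2b stand outside it, and Rrm1 reaches 0.48 with Rrm2 and 0.26 with Dut.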

How the data were processed

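The 9 members and the gene lists were chosen with earlier results of these data known. The authors deposited whole-number counts per gene for 60 libraries in 3 tables. Per the labels and methods, barcoded 3′-end libraries with molecular identifiers were sequenced paired-end, mapped to mm10 (GRCm38) with STAR within zUMIs, counted with featureCounts and down-sampled by library size. Whether the counts are reads or unique molecules was not stated in the sources used here. Bulk cultures gave total RNA and organoids mRNA, whose input was set by Actb, and this can change levels between tables. In the tables, 24, 24 and 42 genes have no symbol. The submitters' processing notes name edgeR 3.28.1 and limma 3.42.2.

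Here, technical replicates were summed, low genes were removed by filterByExpr (minimum count 3), and counts were scaled by TMM and tested in edgeR 4.0.16 (R 4.3.3) with quasi-likelihood F-tests. Benjamini-Hochberg adj. P-values were taken over all genes of a comparison at a threshold of 0.05, and SEs were derived from the F statistic. Log2 CPM for correlations used a prior count of 2. Every pair of replicates differed by more than counting noise (chi-square per degree of freedom 1.08 to 75.5). The limit for a count of 0 (3 counts) covers counting error only, while the SEs also hold the spread between replicates. Where numbers pair cultures, the sets across passages come from the same mouse, and the residual correlations were 0.153, 0.165 and 0.191 for the culture numbers and 0.11, 0.0283 and 0.108 for Sets 1, 3 and 4. The alternatives were RLE size factors, no filter, a minimum count of 10, limma-voom 3.58.1, DESeq2 1.42.0, thinning to the smallest library, a replicate block, leaving out each replicate (Set 3 only for organoids), 1 technical run and all 42 organoids. The fitting was tested on simulated counts. Named pathway genes were the called genes of largest change per list averaging at least 2 in log2 CPM, up to 4 in each direction (2 for organoids), with the 10 and 5 genes closest to Rrm2 and Rrm2b. A few genes taken by this rule are not reported here. Promoters are RefSeq windows of GRCm38.p6 and gene positions GENCODE M21.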

Additional observations from a re-analysis of the deposited data

Results flagged for a closer look

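Of 27 sets of organoid values checked for a single distant organoid (9 members in Sets 1, 2 and 3, which hold 5 to 10 organoids), 1 was flagged. In Set 1, organoid 6 held 194 CPM of Dctpp1, the highest of the 8, and the next highest held 130 CPM. Chance alone flags about 1 in 20 such sets.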

How the results depend on the processing

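The direction of all members was kept in every alternative run of the comparisons that have a direction. Of the members' values, 109 of 117 in the culture comparison, 133 of 134 between passages and 96 of 116 for Set 1 kept direction and side of the threshold. Among Sets 2 to 4, where the gap between set means has no direction, 105 of 116 kept their side of the threshold. Counts of all genes called moved by more than 1.5 times in these cases, and the cause was not tested. For dome against suspension (3779), leaving out a culture gave 1893 to 3837 (1893, 2209 and 1926 without suspension culture 1, 2 and 3), with 4 to 7 members called. Between passages (2784), thinned libraries gave 1770, the first technical run alone 1717, and leaving out a culture 1552 to 2244 (1632 without Set 3 at passage 11, and 1552 and 1788 without Set 3 and Set 4 at passage 4), with the same number of members, 7, called. For Set 1 (2512), thinned libraries gave 1445 and 4 members. Among Sets 2 to 4 (2428), thinned libraries gave 1507 with 2 members, all 42 organoids 1097 with 1 member (Rrm2) and the organoid number as a replicate block 1009 with none, while leaving out single Set 3 organoids gave 1702 to 2733. With the replicate block, 4019 genes were called for the cultures, 2950 for the passages and 2285 for Set 1. The pairing changed no member's call in the cultures or passages. Organoid numbers are only names, and under that block the Rrm2 call in Set 1 was lost (log2 fold-change −0.56). The median r of the other members with Rrm2 was 0.475, and 0.378 in thinned libraries. Rrm2b and Dck, with few counts per library, are limited by depth.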

Other observations

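Among Sets 2 to 4, Cmpk2, a mitochondrial nucleotide kinase that interferon induces, showed the widest gap of the pathway genes named by the rule, 3.18 on the log2 scale (adj. P = 8.22e-08). It averaged 43.8 ± 55.9 CPM (SD, n = 10) in Set 2, with organoids from 7.33 to 186 CPM, 5.42 ± 2.45 CPM in Set 3 (n = 5) and 5.01 ± 1.26 CPM in Set 4 (n = 12). Mthfd2, a mitochondrial folate enzyme, differed by 1.18 (adj. P = 0.000667), and these 2 of the 10 genes named there kept their call in all 13 alternatives. The other 8 were Aldh1l1 with 1.67, Ccnf with 0.77, Txn1 with 0.74, Samhd1 with 0.73, Ppat with 0.68, Impdh2 with 0.57, Nt5c with 0.50 and Dtymk with 0.44. Here too the P-values measure the spread between organoids, not between mice.

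In the 7 organoids that the study left out, with 666660 to 1152914 counts, Rrm2 was within the range of the kept organoids of its set in 5 and above it in 2, both of Set 1, at 67.8 and 73.3 CPM. Tyms, Dut and Dctpp1 were each within the range in 3, below it in 3 and above it in 1. The organoid above it was Set 1 organoid 10 for each gene, at 104 CPM of Tyms and 88.6 CPM of Dut. The left-out Set 4 organoids 4, 8 and 10 held 63.7, 58.4 and 77.5 CPM of Tyms and 81.7, 80.5 and 86.5 CPM of Dut. With the left-out organoids added, Set 4 did not lie wholly above Set 1 for Tyms or Dut.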
